A study of Mus musculus with 60 samples.

Results

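Ionotropic and metabotropic glutamate receptor genes and the genes of their auxiliary subunits were followed across 3 mouse brain regions in WT and Glo1 knockout mice on a pair of diets. The genes were chosen by symbol, with no threshold on measured values but with earlier results of these data known, and all 33 listed symbols were found among the 21999 genes of the deposited tables. They comprise the AMPA receptor genes Gria1 to Gria4, the kainate receptor genes Grik1 to Grik5, the NMDA receptor genes Grin1, Grin2a to Grin2d, Grin3a and Grin3b, the delta receptor gene Grid1, the metabotropic receptor genes Grm2 to Grm5, Grm7 and Grm8, and the auxiliary subunit genes Cacng2, Cacng3, Cacng4, Cacng5, Cacng7, Cacng8, Cnih2, Cnih3, Neto1 and Neto2.

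Poly(A) RNA was sequenced from the prefrontal cortex (Pfc), striatum (Str) and hippocampus (Hip) of 20 mice (60 libraries). The wild-type (WT) animals and those in which Glo1, the gene of the methylglyoxal-detoxifying enzyme glyoxalase 1, was knocked out (KO) ate pellets with either 1.4 mg (normal diet) or 5 µg (lacking diet) of vitamin B6 per 100 g between 8 and 12 weeks of age. Each of the 4 groups held 5 mice, and the 3 libraries of a mouse carry its number. Strain and sex are not given in the sources used here. The labels call the allele a knockout and name no cell type that it is limited to. Each library is bulk tissue of a region, so fewer cells of a type and less RNA per cell cannot be told apart. Every KO library was labelled batch 1 and every WT library batch 2, so genotype and batch cannot be told apart in any KO against WT value below.

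Libraries held 7640047 to 13928265 counts in genes, and the labelled RNA integrity numbers ran from 7.6 to 9.3. Glo1 had at least 299 counts in every WT library and at most 10 in every KO library. The region labels were borne out by marker genes. Tbr1, a transcription factor of cortical excitatory neurons, was highest in Pfc, Drd1 and Drd2 of striatal medium spiny neurons in Str, and Prox1 and Dsp of dentate granule cells in Hip. Markers of other tissue varied between libraries: Slc17a7, the vesicular glutamate transporter of cortical excitatory neurons, ran from 3.64 to 32.3 RPKM in Str, and Ttr, a choroid plexus gene, from 2.14 to 1197 RPKM in Hip. RPKM is reads per kilobase of gene, scaled to the reads of the library, and so a level per length.

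As background, glutamate is the main excitatory transmitter of the brain. AMPA receptors carry the fast current of most excitatory synapses, NMDA receptors pass calcium when glutamate and depolarization coincide, and kainate receptors act on both sides of the synapse. Each is an assembly of 4 subunits, and its subunit makeup sets its conductance, calcium permeability and kinetics. Auxiliary proteins (the TARPs of the Cacng family, the cornichons Cnih2 and Cnih3, and Neto1 and Neto2) bind the pore-forming subunits and change their trafficking and gating. Metabotropic receptors signal through G proteins, Grm5 through Gq and the other members measured here through Gi/o.

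The 3 regions differed in most members. Tests used the quasi-likelihood test of edgeR with Benjamini-Hochberg (BH) adjustment over all genes tested, and a gene was called at an adjusted p under 0.05. After the filter on low counts 32 members were tested. Grin3b, a glycine-binding NMDA subunit, was not: it had 10 counts over all 60 libraries, 52 of which were at 0, and 32.1% of its exonic bases overlap Tmem259 on the other strand. Between Pfc and Str, 28 of 32 members differed (14 higher in Pfc, 14 lower), against 69.9% of the 13930 genes tested (34% higher, 35.9% lower). Between Pfc and Hip, 30 of 32 differed (18 higher in Pfc, 12 lower), against 59.3% of genes (29.1% and 30.2%). Between Str and Hip, 30 of 32 differed (17 higher in Str, 13 lower), against 66.4% of genes (33.6% and 32.9%). A difference of at least 2-fold was called for 12 members between Pfc and Str (15.1% of all genes), for 7 between Pfc and Hip (8.94%) and for 14 between Str and Hip (14.5%). The median absolute log2 difference of the members was 0.62, 0.56 and 0.79 in these comparisons, against 0.30, 0.21 and 0.26 over all genes. The 20 libraries of both regions did not overlap for 17 members between Pfc and Str (18.3% of all genes), for 13 between Pfc and Hip (10.9%) and for 19 between Str and Hip (16.2%). All 32 members differed between the region where their mean was highest and that where it was lowest. That pair was picked for each gene from the same data, which favours a call. The share of all genes under the same pick was not computed.

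**Figure D1:**
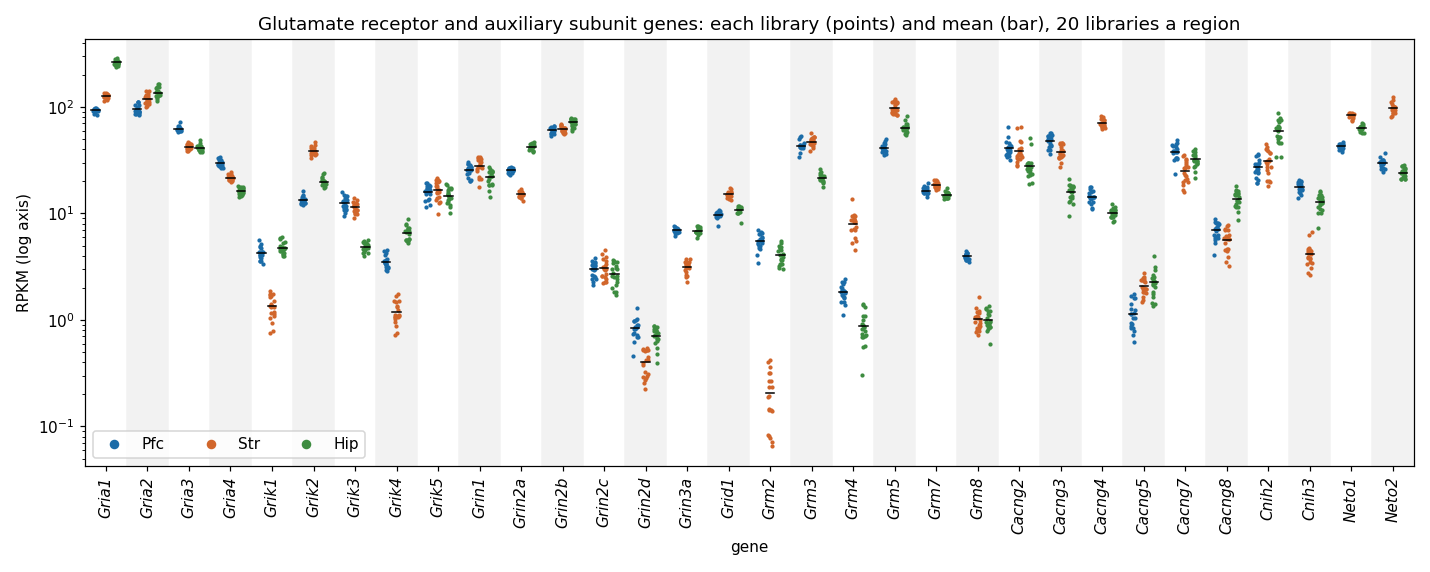
RPKM (log axis) of 32 glutamate receptor and auxiliary subunit genes in each of 60 libraries (points), with the mean of the 20 libraries of a region (bar). Gria1 in Hip is the highest set of points and Grm2 in Str the lowest.

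**Figure D2:**
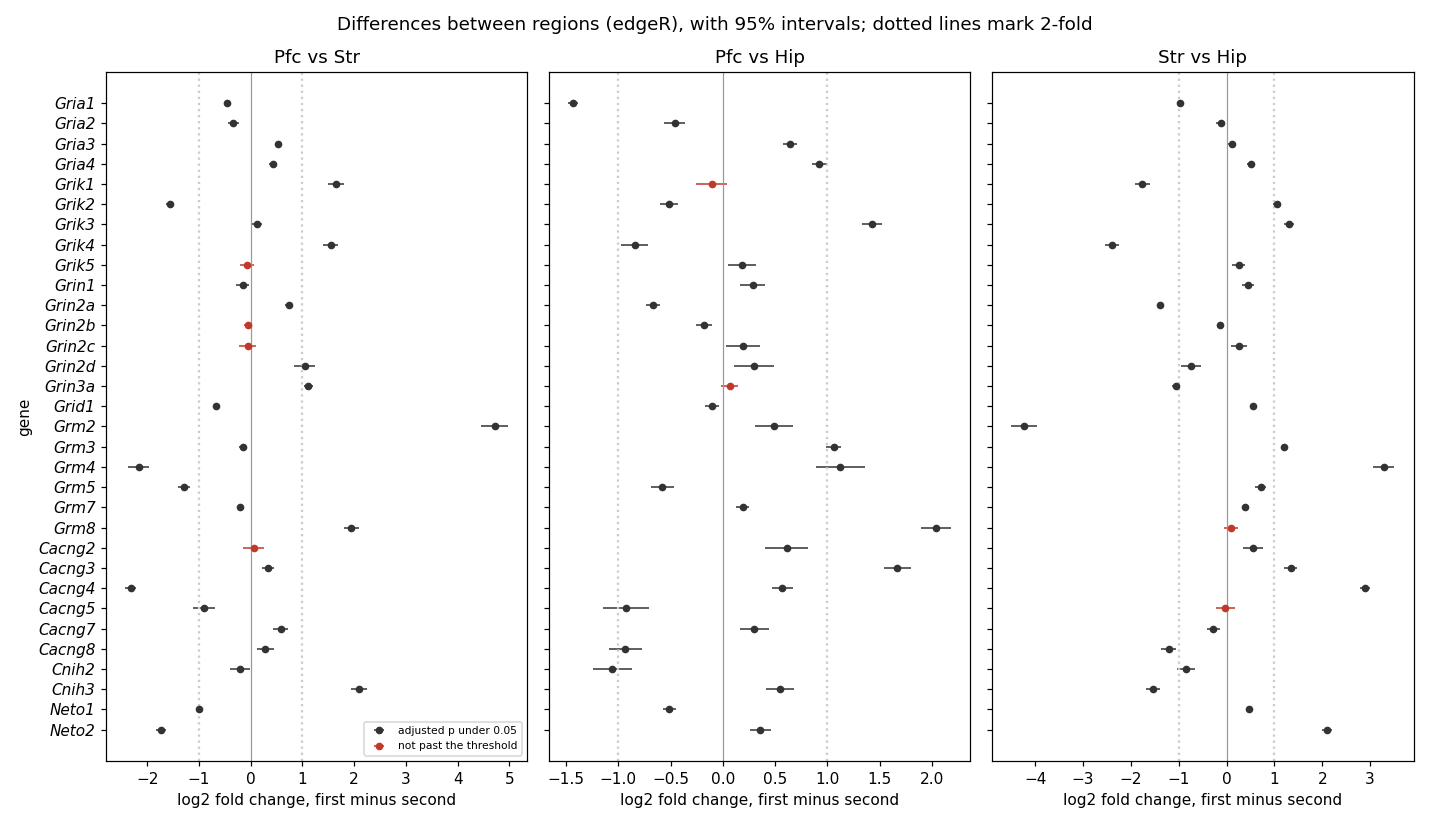
Log2 fold change between regions for 32 genes, first region minus second, with normal 95% intervals computed from the edgeR test. Red points did not pass the threshold, 4 genes between Pfc and Str, 2 between Pfc and Hip and 2 between Str and Hip.

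Of the AMPA receptor genes, Gria1 set Hip apart. Gria1 (GluA1) ran from 84.6 to 97.9 RPKM in Pfc (median 93.7), from 113 to 136 in Str (median 127) and from 235 to 286 in Hip (median 263). The 3 ranges did not touch, and its log2 difference was -1.43 ± 0.02 (SE) between Pfc and Hip (adjusted p = 9.76e-51, edgeR) and -0.97 ± 0.02 between Str and Hip (adjusted p = 5.59e-43). Gria2, whose edited subunit makes the channel impermeable to calcium, followed the same order over a smaller range, with means of 95.4 ± 8.94 (SD, n = 20), 118 ± 12.0 and 137 ± 14.4 RPKM in Pfc, Str and Hip, and the libraries of Str and Hip overlapped. Gria3 and Gria4 ran the other way and were highest in Pfc. Gria3 had means of 62.3 ± 3.17 RPKM in Pfc, 42.3 ± 2.55 in Str and 41.6 ± 2.66 in Hip, and the log2 difference of 0.11 between Str and Hip was small though called (adjusted p = 0.00626). Gria4 fell in steps from 29.6 ± 2.13 RPKM in Pfc to 21.7 ± 1.21 in Str and 16.3 ± 1.16 in Hip, with no overlap between any 2 regions.

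The TARP genes, whose products bind AMPA receptors and change their trafficking and gating, differed in the region of their highest mean. It was Pfc for Cacng2, Cacng3 and Cacng7, Str for Cacng4, and Hip for Cacng5 and Cacng8. Cacng4 (γ-4) ran from 62.2 to 82.6 RPKM in Str (median 68.9), against 11.0 to 17.9 in Pfc (median 14.2) and 8.33 to 12.2 in Hip (median 10.1). All 20 striatal libraries lay far above the rest, with a log2 difference of -2.32 ± 0.05 between Pfc and Str (adjusted p = 6.54e-45) and 2.89 ± 0.05 between Str and Hip (adjusted p = 2.28e-49). Cacng3 (γ-3) was highest in Pfc (36.4 to 57.4 RPKM, median 49.3), lower in Str (27.3 to 46.1, median 36.7) and lowest in Hip (9.41 to 21.0, median 16.3). Its ranges in Pfc and Hip did not meet, with a log2 difference of 1.67 ± 0.06 (adjusted p = 2.36e-31). Cacng8 (γ-8), long known as the hippocampal TARP, was highest in Hip at 13.8 ± 2.37 RPKM, against 6.94 ± 1.23 in Pfc and 5.62 ± 1.33 in Str, and its log2 difference between Str and Hip was -1.21 ± 0.08. Cacng2 (stargazin) averaged 41.0 ± 7.43, 38.8 ± 10.2 and 28 ± 7.68 RPKM in Pfc, Str and Hip, and Pfc and Str were not told apart (log2 difference 0.06, 95% interval -0.15 to 0.26). Cacng7 had means of 38.1, 25.2 and 32.2 RPKM, and Cacng5 stayed at or below 4.03 RPKM in all libraries. For Cacng5, Str and Hip were not told apart (log2 difference -0.03, 95% interval -0.23 to 0.18).

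Against Pfc the cornichon pair differed in opposite ways, and both genes were lower in Str than in Hip (log2 difference -0.85 for Cnih2 and -1.54 for Cnih3, both called). Cnih3 ran from 14.1 to 20.8 RPKM in Pfc (median 17.7), from 7.28 to 16.2 in Hip (median 12.9) and from 2.65 to 6.68 in Str (median 4.02). The striatal libraries lay below all others, with a log2 difference of 2.09 ± 0.07 between Pfc and Str (adjusted p = 8.91e-34). Cnih2 was highest in Hip, at 59.0 ± 14.4 RPKM, against 27.1 ± 5.01 in Pfc and 30.9 ± 8.10 in Str. Its difference between Pfc and Str was small, and the libraries overlapped. The log2 difference was -0.21 (95% interval -0.40 to -0.02), only just called (adjusted p = 0.0472, edgeR). The ratio of Cnih2 to Cnih3 RPKM within a library was 1.52 ± 0.23 (SD, n = 20) in Pfc, 7.67 ± 2.0 in Str and 4.64 ± 0.80 in Hip.

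Among NMDA receptor genes, Grin2a separated all 3 regions. Grin1, the obligatory glycine-binding subunit, averaged 25.5 ± 3.08, 28 ± 4.79 and 21.8 ± 3.48 RPKM in Pfc, Str and Hip, with overlapping ranges. Its differences were called between all 3 regions. The log2 difference was -0.16 between Pfc and Str, 0.29 between Pfc and Hip and 0.44 between Str and Hip. Grin1 RPKM rests on 9700 exonic bases, whereas its longest annotated transcript has 4276, and 13.5% of those exonic bases overlap the antisense gene Grin1os. Its level per length is therefore not set against that of other genes. Grin2a, the subunit that rises after birth, ran from 23.1 to 27.2 RPKM in Pfc (median 25.6), from 13 to 16.9 in Str (median 15) and from 37.6 to 46.5 in Hip (median 42.3). None of the 3 ranges overlapped, and the log2 difference between Str and Hip was -1.40 ± 0.03 (adjusted p = 2.86e-42). Grin2b, the subunit with slower closing, varied over a smaller range, with means of 61.0 ± 3.56, 62.1 ± 3.85 and 72.1 ± 5.67 RPKM. Pfc and Str were not told apart (log2 difference -0.05, adjusted p = 0.22). The ratio of Grin2a to Grin2b RPKM therefore ordered the regions without overlap between any 2 of them: 0.210 to 0.263 in Str, 0.377 to 0.465 in Pfc and 0.531 to 0.685 in Hip. Grin3a, whose product lowers the calcium flow of NMDA receptors, was at 6.94 ± 0.37 RPKM in Pfc and 6.90 ± 0.42 in Hip, which were not told apart, and at 3.15 ± 0.41 in Str. Grin2c and Grin2d were low, with means of 2.73 to 3.06 and 0.402 to 0.842 RPKM.

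Of the kainate receptor genes, Grik2 was highest in Str, and Grik1 and Grik4 were lowest there. Grik2 (GluK2) ran from 33.2 to 47.2 RPKM in Str (median 38.9), against 12.0 to 16.3 in Pfc (median 13.3) and 17.2 to 23.9 in Hip (median 19.6). No region overlapped another, and the log2 difference was -1.56 ± 0.04 between Pfc and Str (adjusted p = 7.04e-39). Grik4, the high-affinity GluK4 subunit, went the opposite way, at 6.60 ± 0.98 RPKM in Hip, 3.54 ± 0.46 in Pfc and 1.19 ± 0.28 in Str, with a log2 difference of -2.39 ± 0.07 between Str and Hip (adjusted p = 1.92e-37). Grik1 (GluK1) was also low in Str, at 1.34 ± 0.33 RPKM against 4.26 ± 0.59 in Pfc and 4.78 ± 0.61 in Hip, and Pfc and Hip were not told apart (log2 difference -0.11, 95% interval -0.25 to 0.04). Grik3 was lowest in Hip, at 4.89 ± 0.46 RPKM against 12.7 ± 1.76 in Pfc and 11.4 ± 1.24 in Str. Grik5, the partner subunit that needs Grik1, Grik2 or Grik3 to form a channel, was nearly level, at 14.7 to 16.6 RPKM. The auxiliary subunits of kainate receptors were highest in Str, as Grik2 was. Neto2 ran from 80.3 to 123 RPKM in Str (median 96.8), from 24.5 to 36.6 in Pfc (median 29.9) and from 21.0 to 28.5 in Hip (median 24.1), a log2 difference of 2.09 ± 0.05 between Str and Hip (adjusted p = 3.83e-41). Neto1, which also binds NMDA receptors, averaged 83.4 ± 3.83 RPKM in Str, 63.4 ± 3.58 in Hip and 42.7 ± 2.34 in Pfc, and no region overlapped another. The Neto1 to Neto2 ratio was 1.14 to 1.72 in Pfc, 0.704 to 1.02 in Str and 2.26 to 3.15 in Hip. Neto1 RPKM rests on 3531 bases, whereas 8352 exonic bases are annotated for it. The ratio is therefore compared between regions only, and does not show which of the genes is higher.

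The metabotropic receptor genes include Grm2, the member with the largest fold change between regions. Grm2, a presynaptic receptor that lowers glutamate release, ran from 3.45 to 7.06 RPKM in Pfc (median 5.52; 227 to 434 counts), from 2.98 to 5.47 in Hip (median 3.97) and from 0.0652 to 0.423 in Str (median 0.191; 4 to 21 counts). Str lay below every other library, with a log2 difference of 4.72 ± 0.13 between Pfc and Str (adjusted p = 8.34e-39) and -4.23 ± 0.14 between Str and Hip (adjusted p = 3.87e-36). Its exons share 9.60% of their bases with Gm28111 on the other strand. Grm4, another release-limiting receptor, was the reverse, from 4.56 to 13.6 RPKM in Str (median 8.41), 1.10 to 2.42 in Pfc (median 1.83) and 0.306 to 1.41 in Hip (median 0.842). All striatal libraries exceeded the rest, with a log2 difference of 3.29 ± 0.11 between Str and Hip (adjusted p = 7.9e-35). Grm8 was highest in Pfc at 3.96 ± 0.26 RPKM, against 1.01 ± 0.22 in Str and 1.00 ± 0.20 in Hip, which were not told apart (log2 difference 0.09, adjusted p = 0.289). Grm3, which is expressed in astrocytes as well as neurons, was at 43.4 ± 4.46 in Pfc and 47.3 ± 4.38 in Str but 21.7 ± 1.82 RPKM in Hip. The summed level of 4 astrocyte markers (Aqp4, Gfap, Aldh1l1 and Gja1) ran from 136 to 209 RPKM in Pfc, 121 to 156 in Str and 272 to 335 in Hip. Aqp4, Gfap and Gja1 carry that sum, and Aldh1l1 averaged 4.58, 3.93 and 3.88 RPKM. The part of astrocyte content in the Grm3 values was not tested. Grm5, the Gq-coupled receptor, was highest in Str at 98.6 ± 11.2 RPKM, against 63.6 ± 6.59 in Hip and 41.0 ± 3.85 in Pfc, with no overlap. Grm7 varied least of the group, from a mean of 15 to 18.5 RPKM. Grid1, a delta receptor that binds cerebellins rather than opening to glutamate, averaged 15.1 ± 0.97 RPKM in Str, 10.8 ± 0.82 in Hip and 9.69 ± 0.67 in Pfc.

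Promoter sequences are shown for Grm2, the member that differed most between regions, and for Grm3 and Cnih2, which differed between Pfc and Hip in opposite directions. They are the 250 bases before the annotated start, from RefSeq (GRCm38.p6), for members with a difference of at least 2-fold, with 1 start in the RefSeq promoter table and with a window that meets no annotated exon. Of the 33 members, 22 had an entry in that table. Capitals mark the GC box GGGCGG on either strand. Grm2 lies at chr9:106656110-106656359, minus strand, Grm3 at chr5:9725353-9725602, minus strand and Cnih2 at chr19:5098522-5098771, minus strand.
Grm2: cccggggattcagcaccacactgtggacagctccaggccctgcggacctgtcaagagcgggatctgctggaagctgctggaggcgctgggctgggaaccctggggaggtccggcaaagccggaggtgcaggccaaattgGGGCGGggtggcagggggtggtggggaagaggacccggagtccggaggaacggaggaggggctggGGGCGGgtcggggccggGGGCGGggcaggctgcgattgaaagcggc
Grm3: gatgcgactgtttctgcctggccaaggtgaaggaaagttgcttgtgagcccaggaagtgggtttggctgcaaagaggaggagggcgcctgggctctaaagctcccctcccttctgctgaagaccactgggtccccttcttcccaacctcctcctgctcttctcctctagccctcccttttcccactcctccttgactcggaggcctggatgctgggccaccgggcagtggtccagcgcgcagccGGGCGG
Cnih2: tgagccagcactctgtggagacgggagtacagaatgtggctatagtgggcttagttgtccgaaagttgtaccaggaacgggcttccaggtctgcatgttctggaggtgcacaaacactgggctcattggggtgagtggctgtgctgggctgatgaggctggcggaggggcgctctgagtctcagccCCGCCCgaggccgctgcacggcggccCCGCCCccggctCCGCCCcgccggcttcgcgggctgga
GC boxes were found 3 times before Grm2, 1 time before Grm3 and 3 times before Cnih2, and 32.7% of 32851 promoter windows of this length hold at least 1. The letters TATAAA (12.4% of windows) and TGACGTCA (1.55%), searched on both strands, are in none of the 3 windows. The windows hold 71.2%, 62.4% and 65.6% G or C, against a median of 52.4%.

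Expressed as shares of a class in RPKM, the subunit genes differed between regions, and receptor protein was not measured. The shares are percentages of the summed RPKM of a class within a library and are given as a description. Gria1 made up 57.4 ± 2.68% (SD, n = 20) of AMPA subunit RPKM in Hip, 41.0 ± 2.74% in Str and 33.3 ± 1.68% in Pfc. Gria3 and Gria4 together fell from 22.2% and 10.6% in Pfc to 9.12% and 3.57% in Hip. Among the GluN2 genes, Grin2b led in all regions, at 67.4 ± 1.35% in Pfc, 77.0 ± 1.32% in Str and 61.2 ± 1.77% in Hip. Grik2 made up 56.1 ± 5.10% of kainate receptor RPKM in Str, 39.2 ± 3.82% in Hip and 27.0 ± 3.18% in Pfc, where Grik5 was at 32.0 ± 3.23%. Cacng4 made up 39.2 ± 2.33% of TARP RPKM in Str but 9.62 ± 1.11% in Pfc and 9.88 ± 0.76% in Hip. Which subunit leads depends on gene length: from reads scaled to the library without length, 7 of the 12 leading subunits were the same, and Gria2 led the AMPA genes in all 3 regions, since its RPKM rests on 15548 bases against 6043 for Gria1. The order of the regions for the level of a given gene does not rest on its length. For a share it can: Cacng2 was at 27.46% in Pfc and 27.41% in Hip from RPKM, but at 42.9% and 43.1% without length. RPKM of Gria2 and Gria3 rests on 15548 and 9859 bases, whereas their longest annotated transcripts have 10371 and 5206. That of Grik2 rests on 8272 bases, whereas 13246 exonic bases are annotated for it. The shares therefore do not show the makeup of transcripts.

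**Figure D3:**
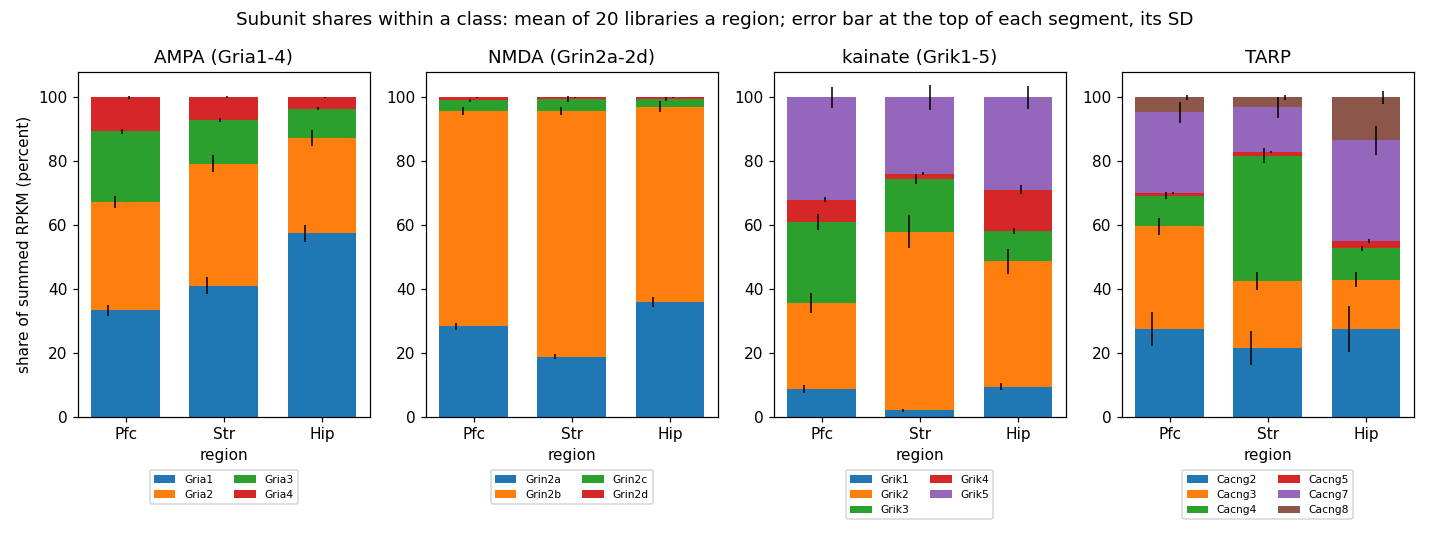
Shares of AMPA, GluN2, kainate and TARP genes in the summed RPKM of their class (percent), mean of 20 libraries a region, with the SD of each segment at its upper edge. The Gria1 segment grows from 33.3% in Pfc to 57.4% in Hip, and the Cacng4 segment is largest in Str at 39.2%.

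Other genes of the glutamate synapse were counted from 4 lists of 56 genes, of which 52 were tested. Of all genes tested, 34% were higher and 35.9% lower in Pfc than in Str. These shares were 29.1% and 30.2% for Pfc against Hip, and 33.6% and 32.9% for Str against Hip. Of the 52 genes, 84.6%, 80.8% and 94.2% were called in these comparisons, against 69.9%, 59.3% and 66.4% of all genes. Of the 21 postsynaptic scaffold genes, 11 were higher and 8 lower in Pfc than in Str, 12 higher and 5 lower in Pfc than in Hip, and 10 higher and 10 lower in Str than in Hip. Of 17 tested genes of other auxiliary and clustering proteins, 9 were higher and 3 lower in Pfc than in Str, 8 higher and 8 lower in Pfc than in Hip, and 5 higher and 12 lower in Str than in Hip. Between Pfc and Str the genes furthest above in Pfc were C1ql3, a secreted synapse organizer (66.7 against 5.03 RPKM, log2 difference 3.71), and Slc17a7, which loads glutamate into vesicles (115 against 13.6 RPKM, log2 difference 3.06). Shisa6, which holds AMPA receptors at the synapse, averaged 38.3 RPKM in Hip, 2.51 in Pfc and 2.44 in Str, and C1ql2, an organizer of kainate receptors at mossy fibre synapses, 17.6, 0.106 and 0.0977. Gsg1l, an AMPA receptor partner, was lower in Hip (6.50 RPKM) than in Pfc (26.6) and Str (41.8), and Olfm2 averaged 13 RPKM in Pfc and 3.09 in Hip. Of 12 transport and metabolism genes, 8 were higher and 3 lower in Pfc than in Str, 4 higher and 3 lower in Pfc than in Hip, and 2 higher and 8 lower in Str than in Hip. Slc17a8, a vesicular glutamate transporter of striatal cholinergic interneurons, averaged 6.78 RPKM in Str, 1.32 in Pfc and 1.51 in Hip.

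Within Str, Cnih3 and other members were compared with the excitatory neuron markers that vary between those libraries. The summed level of 4 such markers ran from 17.5 to 101 RPKM over the 20 striatal libraries, against 541 to 602 in Pfc. Across them Cnih3 gave Pearson r = 0.77 (permutation p = 9e-05) and Spearman rho = 0.79 (permutation p = 9e-05), with r = 0.62 in WT (batch 2), 0.87 in KO (batch 1) and 0.61 without the 2 libraries farthest from the median marker level. Grin3a gave r = 0.67 (permutation p = 0.0013) and rho = 0.60 (permutation p = 0.00576), with r = 0.38 in WT, 0.80 in KO and 0.61 without those 2 libraries. Grik1 gave r = 0.58 (permutation p = 0.00765) and rho = 0.53 (permutation p = 0.0177), with r = 0.72 in WT, 0.55 in KO and 0.54 without them. Grm2 gave r = 0.50 (permutation p = 0.0256) and rho = 0.44 (permutation p = 0.0524), and r fell to 0.34 without them. These 4 are the members with an unadjusted p under 0.05 for r. The share of all genes with such a p was not computed, so the relation is not shown to be particular to these members. The relation was computed for all 32 members, chosen after the spread was seen, and these p-values carry no correction for that number.

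The comparison of KO with WT asks what loss of Glo1 does to these genes. With edgeR, 0 of 32 members were called in any of the 24 comparisons of genotype, diet or their interaction within a region. Over diets, 0.673% of 13223 genes were called between KO and WT in Pfc, 0.203% of 13311 in Str and 0.164% of 13393 in Hip. The shares were 0.121%, 0.0601% and 0.0299% on the normal diet, 0.234%, 0.128% and 0.0672% on the lacking diet, and 0.28%, 0.0826% and 0.0149% between KO mice on the lacking and WT mice on the normal diet. At an unadjusted p under 0.05 over diets, the members numbered 2 in Pfc (14.1% of all genes), 3 in Str (5.78%) and 1 in Hip (4.24%). On the lacking diet they numbered 6 in Pfc (12.4%), 1 in Str (4.58%) and 0 in Hip (6.02%), and on the normal diet 0 in each region (5.37%, 2.43% and 7.48%). Between KO mice on the lacking and WT mice on the normal diet they numbered 2 (13%), 0 (5.06%) and 0 (3.62%). DESeq2 called a member in 2 of the 30 comparisons of effects and limma on log2(RPKM + 1) in 0. Normal 95% intervals, somewhat narrower than the test implies, were set against a 1.5-fold change either way. Over diets, those of KO against WT lay within it for 32 of 32 members in Pfc, 29 in Str and 31 in Hip.

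Cacng4 in Pfc came closest to the threshold. Its 5 WT mice on the normal diet had 14.2, 15.6, 14.3, 16.3 and 16.0 RPKM, and those on the lacking diet 17.7, 12.9, 17, 14.2 and 17.9. The 5 KO mice on the normal diet had 13.7, 14.6, 14.2, 14.3 and 12.9 RPKM, and those on the lacking diet 11.0, 13.9, 11.4, 12.3 and 14. The KO values were mostly below the WT values, and the genotypes overlapped. Means were 13.2 RPKM in KO and 15.6 in WT, a log2 difference of -0.26 ± 0.07 (unadjusted p = 0.000596, adjusted p = 0.0621, edgeR). On the lacking diet alone the log2 difference was -0.38 ± 0.09 (adjusted p = 0.0914), and on the normal diet -0.14 ± 0.09 (adjusted p = 0.928). The call over diets depends on the fit: the adjusted p was 0.0237 with DESeq2, 0.0455 with RNA integrity as a covariate and 0.0104 without mouse 226, the lowest WT value, and ran from 0.0104 to 0.16 over all alternatives. In Str the log2 difference was 0.04 ± 0.06 after TMM scaling of the library sizes (adjusted p = 0.872, edgeR), while the RPKM means, which lack that scaling, were 70.4 in KO and 70.7 in WT, so that the sign differs between the scales. In Hip the log2 difference was -0.02 (RPKM means of 10.05 in KO and 10.2 in WT). The test of whether the genotype effect differed gave -0.29 ± 0.10 between Pfc and Str (unadjusted p = 0.00341, adjusted p = 0.499), which was not called.

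**Figure D4:**
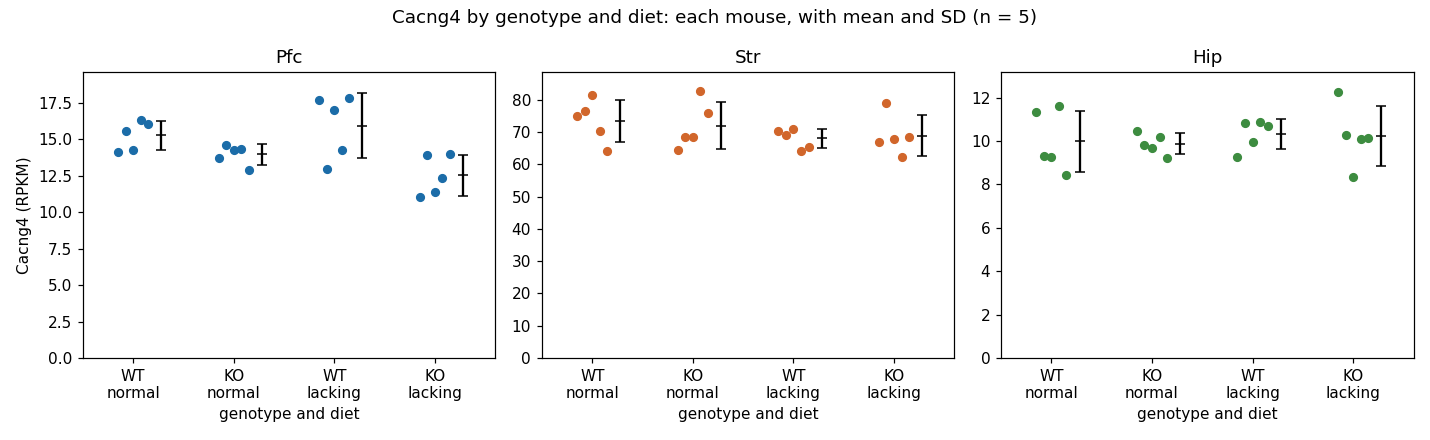
Cacng4 level (RPKM) in each mouse by genotype and diet, with mean and SD (n = 5), in Pfc, Str and Hip. In Pfc the KO mice on the lacking diet average 12.5 RPKM and the WT mice on that diet 15.9, and both ranges overlap. The axes differ between regions.

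In the same Pfc comparison, 2 of 50 tested genes from the lists of the glutamate synapse were called, and both fell. Slc1a3, the astrocyte glutamate transporter GLAST, had a log2 difference of -0.33 ± 0.06 (adjusted p = 0.00678; KO 124 to 159, WT 135 to 196 RPKM). Glul, the astrocyte enzyme that turns glutamate into glutamine, had -0.25 ± 0.06 (adjusted p = 0.0335; KO 626 to 807, WT 641 to 876 RPKM). The astrocyte markers had log2 differences of -0.22 (Aqp4), -0.17 (Gja1), -0.11 (Gfap) and -0.07 (Aldh1l1), of which 0 of 4 passed, and their summed mean was 156 and 169 RPKM in the KO groups on the lacking and normal diet and 178 and 184 in the WT groups. The part of astrocyte content in these falls was not tested.

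The other members with the smallest p in this comparison stayed further from the threshold. In Pfc, Grik4 had a log2 difference of -0.20 ± 0.08 (adjusted p = 0.219, edgeR) and Grm2 of -0.19 (adjusted p = 0.377). In Str, Cacng2 had 0.31 ± 0.15, Grik2 0.14 ± 0.06 and Gria3 0.11 ± 0.05, all with an adjusted p of 0.74. The Cacng2 value rests on 2 KO libraries at 65.1 and 63.5 RPKM, while the other 18 lay between 27.8 and 48.3. In Hip, Cnih3 had 0.23 ± 0.10 and Cacng5 0.29, and Grm3 had -0.09, all with an adjusted p of 1. Grm4, which lies 3.08 Mb from Glo1 on chromosome 17, showed no called difference: its means in KO and WT were 1.82 and 1.81 RPKM in Pfc, 8.39 and 7.68 in Str, and 0.835 and 0.906 in Hip.

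The diet comparison asks whether pellets low in vitamin B6 shift these genes. With edgeR, 0 of 32 members were called between diets in any region, and 0% of all genes were called over genotypes in each. At an unadjusted p under 0.05, Grik3 in Pfc was the single member over genotypes, with a log2 difference of 0.15 ± 0.07 and an adjusted p of 1 (3.28% of genes had such a p in Pfc, 3.06% in Str and 2.15% in Hip). Within WT the members with such a p numbered 1, 0 and 0 in Pfc, Str and Hip (2.27%, 2.91% and 4.03% of genes), and within KO 1 in each (5.19%, 1.68% and 6.56%). It averaged 13.5 RPKM in KO and 13.1 in WT mice on the lacking diet, against 12.7 and 11.3 on the normal diet. Gria2 and Grid1 had 0.08 and -0.07 in Pfc, Grin3a, Grid1 and Grm7 had -0.13, -0.09 and -0.08 in Str, and Grin2a, Grin2b and Neto2 had 0.06, 0.11 and 0.09 in Hip, with unadjusted p from 0.0653 to 0.233. In Hip, the largest of 32 differences was 0.12 (Cacng2, named for its size), and all 32 intervals lay within 1.5-fold. In Str the largest was Grm2, named likewise, at -0.52 ± 0.33 (95% interval -1.17 to 0.13), at 4 to 21 counts a library, where a change of that size was not detectable.

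The interaction test asks whether the diet acted differently in KO and WT. It called 0 of 32 members, and 0% of genes, in each region. In Hip, 3 members had an unadjusted p under 0.05 (9.45% of genes): Gria3 at 0.23 ± 0.10, Gria4 at 0.23 ± 0.11 and Grik2 at 0.25 ± 0.12, with adjusted p of 0.516 to 0.517. In Pfc 1 member (3.17% of genes) and in Str 0 members (1.7%) had such a p. In Pfc, Neto2 had -0.31 ± 0.12 (adjusted p = 1), with means of 32.1 and 28.8 RPKM in WT on the lacking and normal diet and of 27.8 and 30.6 in KO, while Grid1 had -0.20 and Gria4 0.17. In Str, Cnih3 had the largest value, 0.47 (unadjusted p = 0.0802), and Grin2c and Grid1 had -0.27 and -0.11. The excitatory marker sum that Cnih3 followed there averaged 60.8 and 50.4 RPKM in WT on the normal and lacking diet and 51.0 and 54.3 in KO, and its part in the value was not tested. Tests of whether the genotype or diet effect differed between regions called 0 members in all 6 comparisons with edgeR (0.00718% of genes for genotype between Pfc and Hip, 0% in the others). At an unadjusted p under 0.05, the genotype effect differed for 6 members between Pfc and Str (9.18% of genes), 2 between Pfc and Hip (6.03%) and 4 between Str and Hip (5.81%), and the diet effect for 2 (1.47%), 1 (2.86%) and 2 (2.71%).

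Many members varied within a region along with a property of the library. For each library, the slope of gene level on gene GC content was computed, in log2 units per 10 percentage points of GC. Gene levels were taken as deviations from the mean of their region. It ran from -0.27 to 0.17 in Pfc, from -0.29 to 0.25 in Str and from -0.29 to 0.18 in Hip. GC-rich Cnih2 (62.3% GC) rose with it and AT-rich Gria2 (36.8% GC) fell: Cnih2 gave Pearson r = 0.86, 0.97 and 0.90 in Pfc, Str and Hip (Spearman rho 0.90, 0.96 and 0.85) and Gria2 gave r = -0.81, -0.95 and -0.89 (rho -0.67, -0.94 and -0.85), with a permutation p of 2e-05 for Gria2 in Pfc and of 1e-05, the smallest that 100000 permutations can give, for the other r. Without the 2 libraries farthest from the median slope, r was 0.84, 0.96 and 0.81 for Cnih2 and -0.66, -0.93 and -0.82 for Gria2, and within each genotype, and so each batch, r stayed at 0.84 or above for Cnih2 and at -0.82 or below for Gria2. An r of at least 0.7 either way was found for 10 of 32 members in Pfc (31.2%, against 13.8% of all genes), 13 in Str (40.6%, against 27.3%) and 12 in Hip (37.5%, against 20.7%). The relation was computed 96 times, for 32 members in 3 regions. Slopes come from the same counts as the gene levels, so on average GC-rich genes rise and AT-rich genes fall with the slope by construction. Single genes departed from this. Cacng2 (51.2% GC) gave r = -0.83, -0.90 and -0.83 in Pfc, Str and Hip. Neto1 (39.6% GC) gave 0.09, -0.49 and -0.34. The slope gave r = -0.49, -0.31 and -0.51 with the RNA integrity number in these regions, and the part of RNA quality was not tested. The outlying Cacng2 libraries of Str, at 65.1 and 63.5 RPKM, had slopes of -0.29 and -0.25. With the slope as a covariate, an alternative chosen after the data were seen, the region counts stayed at 28, 30 and 30, and Cacng4 in Pfc passed between genotypes over diets (adjusted p = 0.033).

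**Figure D5:**
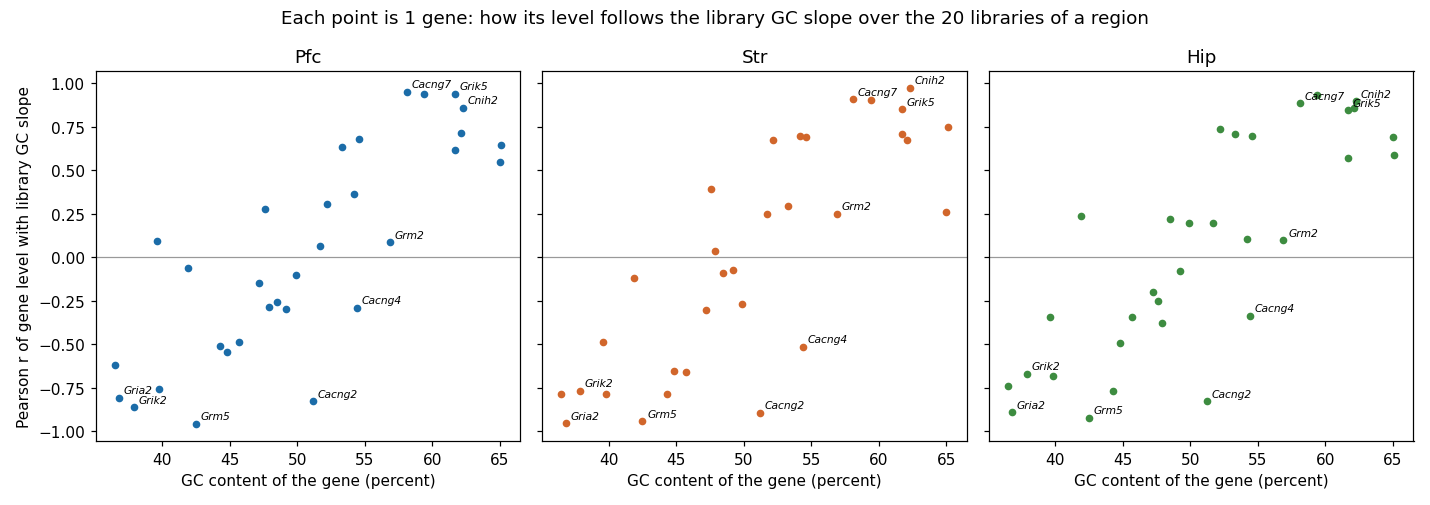
Pearson r between a gene's level and the GC slope of the library over 20 libraries of a region, against the GC content of the gene (percent), for 32 genes. Points rise from Gria2, Grik2 and Grm5 at the lower left to Cnih2, Cacng7 and Grik5 at the upper right in each region. The slope is fitted on the same counts, so a rise is built in.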

How the data were processed

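RNA-seq was run on 60 libraries (75-bp single-end reads, 2 µg of total RNA, poly(A) selection, per the labels' protocols). The authors aligned reads with STAR 2.7.1a and counted with HTSeq 0.9.1 on mm10, per the submitters' processing notes; the annotation and strand setting are not given in the sources used here, so reads from antisense partners cannot be separated. The deposited counts are whole reads per gene. The deposited RPKM values are those counts per kilobase, scaled to the counted reads. Samples were grouped by the labelled region, genotype and diet, and nothing says that mice were independent beyond their numbers.

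Counts were tested with edgeR 4.0.16 (TMM scaling, filterByExpr with a minimum count of 10, quasi-likelihood test, BH adjustment over all genes tested; R 4.3.3). Region contrasts were fitted on 60 libraries and averaged over the 4 groups; genotype, diet and interaction contrasts on the 20 libraries of a region. Log2 differences are the first group minus the second, with normal 95% intervals. The fits were tested on simulated data. Alternatives were DESeq2 1.42.0, limma 3.58.1 on log2(RPKM + 1), other filters and scaling, RNA integrity (RIN) as a covariate, the mouse number as a block, WT mice on the normal diet alone, leaving out each mouse, shares without gene length, and, chosen after seeing the data, the library GC slope as a covariate. GC content is that of the longest GENCODE M21 transcript of a gene, found for 99.4% of genes.

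The 3 libraries of a mouse come from the same animal, by the number in the labels; deviations from group means correlated at 0.03, 0.04 and 0.07 on average within a mouse for the 3 pairs of regions, and at -0.01, -0.01 and -0.02 between other mice. Total counts set the precision: a count of 0 in a library allows up to 3 counts, 0.215 to 0.393 CPM, for counting error only. Members, gene lists and tests were chosen with earlier results of these data known. Every member is named with its levels. Full statistics go to up to 5 members per pair of regions with the largest called change and no overlap, to the leading member of a class, and to the 3 members with the smallest p in each genotype, diet and interaction comparison of a region. Other glutamate synapse genes are named where called between genotypes or diets, or where among the 2 largest changes in each direction between regions, of which 1 is not reported here. Permutation tests drew 100000 permutations and are two-sided.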

Additional observations from a re-analysis of the deposited data

Results flagged for a closer look

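For the members with the smallest p in the genotype, diet and interaction comparisons, each group of 5 mice was checked for a library set far apart, meaning that its gap to the nearest other library was over 0.71 of the range of the group (Dixon's criterion). Of 100 groups checked, 7 held such a library, where about 5 are set apart by chance. In the Pfc of WT mice on the lacking diet, mouse 241 had 112 RPKM of Gria2 (the other 4 mice 86.0 to 93.2) and 36.6 RPKM of Neto2 (the others 30.6 to 32.0). This library has the lowest GC slope in Pfc, -0.27. In the Str of KO mice on the lacking diet, mouse 452 had 65.1 RPKM of Cacng2 (the others 30.1 to 40.2), and this library has the lowest GC slope in Str, -0.29. In Hip, Gria3 was at 37.7 RPKM in mouse 241 of the WT group on the lacking diet (the others 40.8 to 41.4) and at 49.4 RPKM in mouse 286 of the WT group on the normal diet (the others 40.2 to 42.9). Mouse 241 has the highest GC slope in Hip, 0.18, and mouse 286 a low one, -0.27. Grid1 was at 7.58 RPKM in the Pfc of mouse 339 of the KO group on the lacking diet (the others 9.24 to 9.41), and Grik2 at 22.1 RPKM in the Hip of mouse 325 of that group (the others 19.4 to 20.2). The part of the GC slope in these values was not tested.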

How the results depend on the processing

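Region counts stayed within 1.5 times of the reported ones under each alternative run: 24 to 28 members between Pfc and Str, 24 to 30 between Pfc and Hip and 25 to 30 between Str and Hip, the lowest with WT mice on the normal diet alone. With the mouse number as a replicate block the counts were 28, 30 and 30, and the block changed no count of calls. Leaving out each mouse gave 26 to 28, 29 to 30 and 29 to 30. Between genotypes over diets in Pfc, 0 members rose to 1 (Cacng4) with DESeq2, with RIN and with the GC slope as a covariate, and leaving out each mouse gave 0 to 1. On the lacking diet in Pfc, 0 rose to 1 (Cacng4) with DESeq2 and with the GC slope, and leaving out each mouse gave 0 to 1. Between KO on the lacking and WT on the normal diet in Pfc, the GC slope gave 1 (Gria2, log2 difference 0.16). The cause was not tested. Shares without gene length kept 7 of 12 leading subunits. No member difference that was followed through these alternatives changed direction. The Cacng4 difference between genotypes in Str was not among them, and its sign differs between TMM-scaled values and RPKM means. Omitting TMM scaling moved the median of all genes by at most 0.08 (log2; -0.08, Str against Hip). Depth limits Grm2 in Str (4 to 21 counts) and Grin3b.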
